A study of Arabidopsis thaliana with 2 samples.

Results

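The genes described here belong to families that build, decorate, loosen or remodel the plant cell wall. They were chosen by name, as every probe set with exactly 1 gene whose symbol in the platform's annotation begins with XTH, EXPA, EXPB, EXLA, EXLB, CSL, CESA, IRX, GAUT, GATL, FLA, AGP, COBL, TBL or PME, with or without a leading AT, followed by a letter or digit. This gave 65 probe sets, each for a different gene, of 22746 on the array and of 13513 that carry exactly 1 gene. RNA of axillary buds from 2 Arabidopsis thaliana lines was hybridised to 1 single-colour Affymetrix-type array per line. Both lines have the Col-0 background and carry ethyl methanesulfonate-induced mutations. The axr3-1 line has a gain-of-function allele of AXR3 (IAA17), a repressor of auxin-responsive transcription. The axr1-12 line has a loss-of-function allele of AXR1, which acts in the degradation of such repressors. The series title sets dormant against active axillary meristems, but the labels give both lines the same description, buds elongated to about 2 mm, and do not say which line stands for which state. Plants of both lines received 3 days of cold and then grew on compost at 21 °C in a photoperiod of 16 h, with nights of 8 h. Each value is from 1 array, so no difference has a replicate check, a standard error or a p-value, and every comparison is one between these 2 RNA samples.

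A growing plant cell wall consists of cellulose microfibrils embedded in hemicelluloses and pectins, with structural proteins among them. Cellulose synthases (CESA) spin microfibrils at the plasma membrane, while cellulose synthase-like (CSL), IRX and GAUT enzymes make the backbones of hemicelluloses and pectin in the Golgi apparatus and TBL proteins add acetyl groups to them. Expansins loosen the wall without cutting it, xyloglucan endotransglucosylase/hydrolases (XTH) cut and rejoin xyloglucan chains, and pectin methylesterases (PME) remove methyl groups from pectin, so these families help to set how far a cell in a growing bud can expand.

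Of the 15 families named in the rule, 10 had at least 1 member. TBL was the most numerous with 22, followed by EXPA with 10, XTH with 9, CSL with 8, PME with 5, EXPB with 4, EXLA with 3, IRX with 2, and EXLB and GAUT with 1 each. The TAIR10.1 assembly has 247 genes whose symbols match the same rule, so most family members are not analysed here. No probe set of 1 gene matched CESA, GATL, FLA, AGP or COBL, and neither primary-wall nor secondary-wall cellulose synthases are analysed here. One of the PME members, PMEAMT (AT1G48600), matches by spelling alone, since it encodes a phosphoethanolamine methyltransferase of membrane lipid synthesis.

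Signals are the deposited MAS5 values on a linear scale, in arbitrary units. They are compared between the arrays for 1 probe set at a time, since probes differ in affinity and a signal does not rank genes against each other. A member is called measured when its mean signal, averaged on the log2 scale, reached the median of all probe sets, 51.4 units. This filter left 28 of the 65 members in 9 families, and 6009 probe sets of 1 gene over the whole array. Signals under 15.3 units were set to that floor. No fold is given where a signal lay at the floor or under 29.4 units, the highest value of 27 dim bacterial control probe sets. Differences are log2 of axr1-12 minus axr3-1 after scaling, so a negative value means a lower signal in axr1-12. As a yardstick, genes with 2 measured probe sets disagreed between them by a root mean square of 0.37 (32 genes), and this covers probes but not plants or hybridisations.

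Among the measured members, XTH16 was 3.94-fold lower in axr1-12 buds, the expansin-like gene EXLB1 was 2.23-fold lower and TBL45 was 2.01-fold higher. These were the 3 of 28 that differed at least 2-fold, or 10.7%, where 5.44% of all measured probe sets of 1 gene did. Of the 28, 2 were at least 2-fold lower and 1 was at least 2-fold higher, beside 3.16% lower and 2.28% higher over the whole array. At 1.5-fold, 7 members were lower and 4 higher, which is 39.3% of the measured members where the whole array has 19.7%. The 7 lower members were 25% of the measured ones, beside 11.3% over the array, and the 4 higher members 14.3%, beside 8.42%. Among the lower members, EXLB1, PME61 and TBL26 had 39.5, 41.3 and 40.0 units in axr1-12, under the filter of 51.4 units. They passed the filter on the mean only through their signals in axr3-1. The other lower members and all 4 higher members lay above 51.4 units on both arrays. The shares of the array rest on the same filter. The median difference was -0.12 over the members and -0.02 over all measured probe sets of 1 gene. By any amount, 18 members were lower and 10 higher in axr1-12, where 51.7% of the array was lower and 48.3% higher. The differences of 14 members were smaller than the yardstick of 0.37, or 50% of the measured members, beside 60.5% of the array. With so few members and 1 array per line these shares are descriptions of 2 RNA samples.

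**Figure D1:**
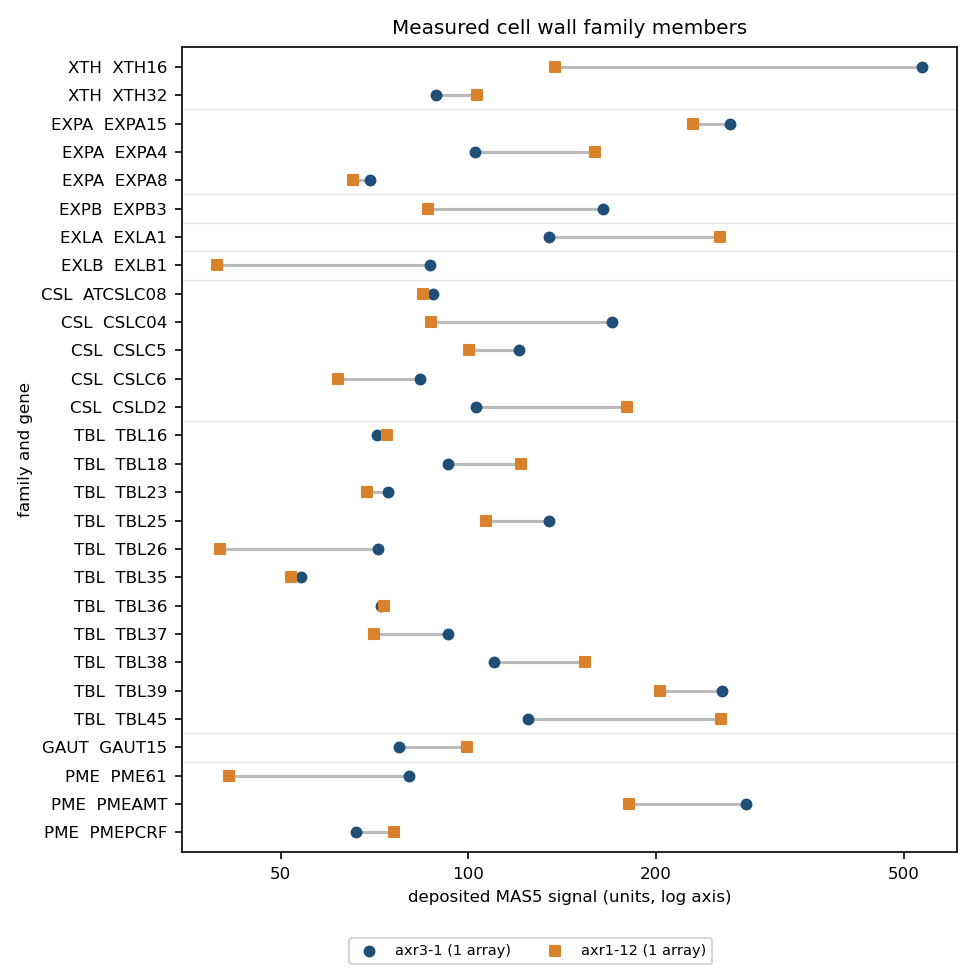
Deposited signal (log axis, units) of the 28 measured members on the axr3-1 array (circles) and the axr1-12 array (squares), 1 array per line, grouped by family; grey lines join the arrays. XTH16 spans the widest gap, from 534 units in axr3-1 to 138 in axr1-12, and TBL45, EXLA1, CSLD2 and EXPA4 are the widest with the higher signal in axr1-12.

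The families that loosen or remodel walls had 27 members, of which 8 were measured. Of the 8, 5 were lower in axr1-12 and 3 higher, beside 51.7% and 48.3% of the array. Their median difference was -0.17, with a range from -1.98 to 0.89. XTH16 (AT3G23730), a xyloglucan endotransglucosylase/hydrolase, had 534 units in axr3-1 and 138 in axr1-12, a log2 difference of -1.98. It ranked 11th from the lowest of the 6009 measured probe sets of 1 gene. The difference stood between -1.98 and -1.86 under every scaling and floor tried. XTH32 (AT2G36870), the other measured gene of the family, had 88.8 units in axr3-1 and 103 in axr1-12. Its difference of 0.20 lay inside the yardstick, so the 2 measured XTH genes did not share a difference.

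The remaining 7 XTH genes were too dim to be measured. XTH18 (AT4G30280) lay at the floor in axr3-1, with 15.1 units, and gave 46.2 units in axr1-12. XTH20 (AT5G48070) had 17.4 units in axr3-1 and 31.2 in axr1-12. Both signals in axr3-1 lay under the dim controls and both in axr1-12 lay above them, the direction opposite to that of XTH16. XTH19 (AT4G30290), the gene next to XTH18 on the chromosome, lay at the floor on both arrays, with 10.8 and 2.44 units. XTH21, XTH26 and XTH29 also lay at the floor on both arrays, and XTH33, a membrane-anchored family member, had 5.996 and 18.4 units, both under the dim controls. XTH18, XTH19 and XTH20 are best known from roots.

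Expansins had 18 members in 4 families, of which 6 were measured. Of the 6, 4 were lower in axr1-12 and 2 higher, beside 51.7% and 48.3% of the array. EXLB1 (AT4G17030), the single expansin-like B gene, had 86.8 units in axr3-1 and 39.5 in axr1-12, a difference of -1.16. Its lower signal was not far above the dim controls, and with a pseudocount the difference was -0.90, short of 2-fold. EXPB3 (AT4G28250), a beta-expansin, had 164 units in axr3-1 and 86.0 in axr1-12, 1.94-fold lower. The other beta-expansins were not measured, but EXPB1 (AT2G20750) lay just outside the filter and above the dim controls on both arrays. It had 81.4 units in axr3-1 and 32.1 in axr1-12, 2.57-fold lower, and was at least 2-fold lower when a pseudocount was used in place of the floor, because the filter then admitted it. EXPB5 had 40.4 units in axr3-1 and 24.9 in axr1-12, the second value under the dim controls. EXPB2 had 20.4 and 20.0, both under them. EXPB3 and EXPB1, the beta-expansins above the dim controls on both arrays, were lower in axr1-12, as were 51.7% of the array.

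The expansin-like A genes with signal over the dim controls differed in opposite directions. EXLA1 (AT3G45970) had 135 units in axr3-1 and 254 in axr1-12, 1.86-fold higher. EXLA2 (AT4G38400) had 63.5 units in axr3-1 and lay at the floor in axr1-12, with 9.05 units, so it was lower there but has no fold. EXLA3 (AT3G45960), the neighbour of EXLA1 on the chromosome, lay at the floor on both arrays.

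Alpha-expansins are the proteins first isolated for wall extension at acid pH, and 3 of the 10 were measured. EXPA4 (AT2G39700) had 102 units in axr3-1 and 160 in axr1-12, 1.53-fold higher. EXPA15 (AT2G03090) had 263 and 229 units and EXPA8 (AT2G40610) had 69.4 and 65.2 units, and both differences, -0.22 and -0.11, lay inside the yardstick. EXPA9 (AT5G02260) was below the filter, at 61.9 units in axr3-1 and 32.7 in axr1-12, 1.92-fold lower. EXPA20 had 46.3 and 35.5 units. EXPA7 and EXPA18, expansins of root hairs, served as markers of root tissue. EXPA7 had 24.4 and 3.64 units, both under the dim controls, and EXPA18 had 33.1 and 30.2 units, slightly above them. EXPA16, EXPA21 and EXPA24 lay under the dim controls on both arrays.

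**Figure D2:**
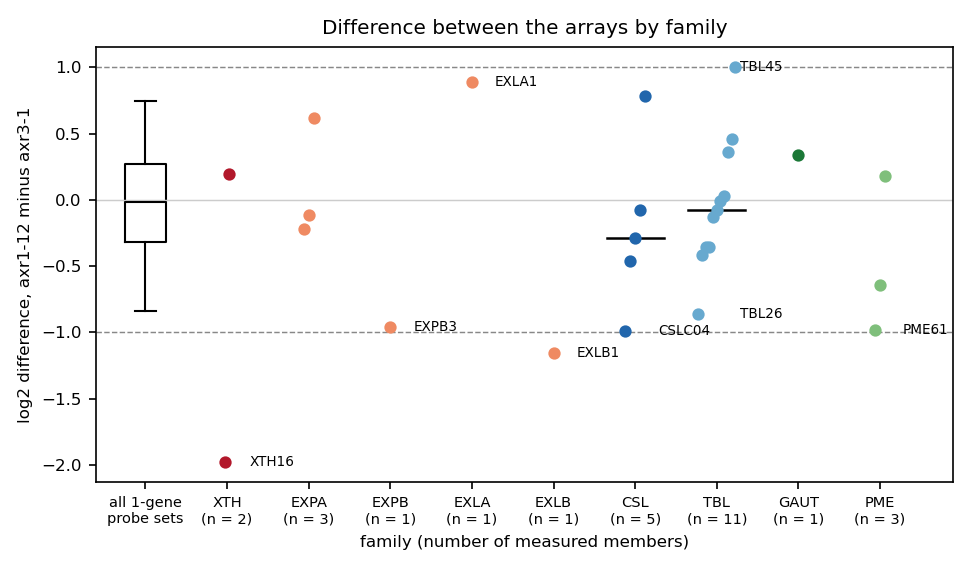
Log2 difference (axr1-12 minus axr3-1) of each measured member by family, with the number measured in brackets. The box at left gives the quartiles of all 6009 measured probe sets of 1 gene with whiskers from percentile 5 to 95, black bars mark the medians of the families with at least 4 measured members, CSL at -0.29 and TBL at -0.075, and dashed lines mark 2-fold. XTH16 lies far below the whiskers.

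The CSL, IRX and TBL families, grouped here under hemicellulose synthesis and acetylation, had 32 members, and 16 were measured. The grouping is by family name and not by the substrate of each gene. Of the 16, 11 were lower in axr1-12 and 5 higher, beside 51.7% and 48.3% of the array, and the median difference was -0.10. The CSL family had 8 members and 5 were measured, with a median of -0.29. CSLC genes encode the glucan synthases that make the backbone of xyloglucan, the substrate of XTH enzymes. All 4 measured CSLC genes had a lower signal in axr1-12, as did 51.7% of the array. Of the 4, 2 were lower by more than the yardstick, beside 21.2% of the array. CSLC04 (AT3G28180) had 170 units in axr3-1 and 87.1 in axr1-12, 1.98-fold lower. Quantile and loess scaling moved it just past 2-fold, to -1.02 and -1.01. CSLC6 (AT3G07330) had 83.7 and 61.7 units, 1.38-fold lower. CSLC5 (AT4G31590) had 121 and 100.4 units, and CSLC08 (AT2G24630, listed as ATCSLC08) had 87.9 and 84.6. The fifth gene, CSLC12 (AT4G07960), was just below the filter, at 44.5 and 42.3 units, so the last 3 did not differ beyond the yardstick.

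CSLD2 (AT5G16910), a cellulose synthase-like gene best known from tip-growing root hairs, had the opposite direction, with 103 units in axr3-1 and 180 in axr1-12, 1.73-fold higher. The 2 CSLA genes, whose family makes mannan backbones, were below the filter. CSLA03 (AT1G23480) had 51.5 units in axr3-1 and 17.0 in axr1-12, the second value under the dim controls. CSLA01 (AT4G16590) had 51.5 and 38.3 units, 1.36-fold lower.

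TBL proteins, named after TRICHOME BIREFRINGENCE, acetylate wall polysaccharides. Of the 22 TBL members 11 were measured, with 7 lower and 4 higher in axr1-12, beside 51.7% and 48.3% of the array. The TBL median was -0.075, with a range from -0.86 to 1.00. TBL45 (AT2G30010) had 125 units in axr3-1 and 254 in axr1-12. At 2.01-fold higher it stood at the threshold itself, and quantile scaling, loess scaling or a pseudocount left it just short, at 0.97, 0.98 and 0.92. It ranked 135th from the highest of the 6009 measured probe sets. TBL26 (AT4G01080) had 71.5 units in axr3-1 and 40.0 in axr1-12, 1.82-fold lower.

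TBL23, TBL25 and TBL26 are mannan acetyltransferases, and all 3 were measured and lower in axr1-12, as were 51.7% of the array. TBL25 (AT1G01430) had 134 and 107 units and TBL23 (AT4G11090) had 74.2 and 68.8, both inside the yardstick, so TBL26 alone differed beyond it. TBL38 (AT1G29050) had 110 units in axr3-1 and 154 in axr1-12, 1.38-fold higher, and TBL37 (AT2G34070) had 92.8 and 70.6, 1.33-fold lower. TBL39 (AT2G42570), at 255 and 203 units, and TBL18 (AT4G25360), at 92.8 and 121, differed by -0.35 and 0.36, inside the yardstick. TBL16, TBL35 and TBL36 differed by between -0.075 and 0.029.

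The other 11 TBL genes were below the filter, among them TBL28, TBL30, TBL32 and TBL34, which are linked to xylan acetylation, as is the measured TBL35 with 54.0 and 52.0 units. TBL28 (AT2G40150) had 31.3 units in axr3-1 and 26.3 in axr1-12, and its chromosomal neighbour TBL30 (AT2G40160) had 18.8 and 14.4. TBL34 had 25.6 and 11.6 units. TBL32 had 28.0 and 44.3 units, from a probe set of the type that can hybridise to more than 1 transcript. TBL20 (AT3G02440) had 39.8 units in axr3-1 and lay at the floor in axr1-12, with 2.98 units. The neighbours TBL19 and TBL21 lay under the dim controls on both arrays, as did TBL15, TBL41, TBL42 and TBL43.

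IRX15 and IRX15-L, which act in xylan deposition in secondary walls, were not measured. IRX15 (AT3G50220) lay at the floor on both arrays, with 4.35 and 1.56 units. IRX15-L (AT5G67210) had 29.5 units in axr3-1, level with the brightest dim control, and 24.9 in axr1-12. IRX10 (AT1G27440), a xylan synthase gene listed under its other name GUT2 and so outside the naming rule, had 105 and 90.1 units, a difference of -0.25.

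**Figure D3:**
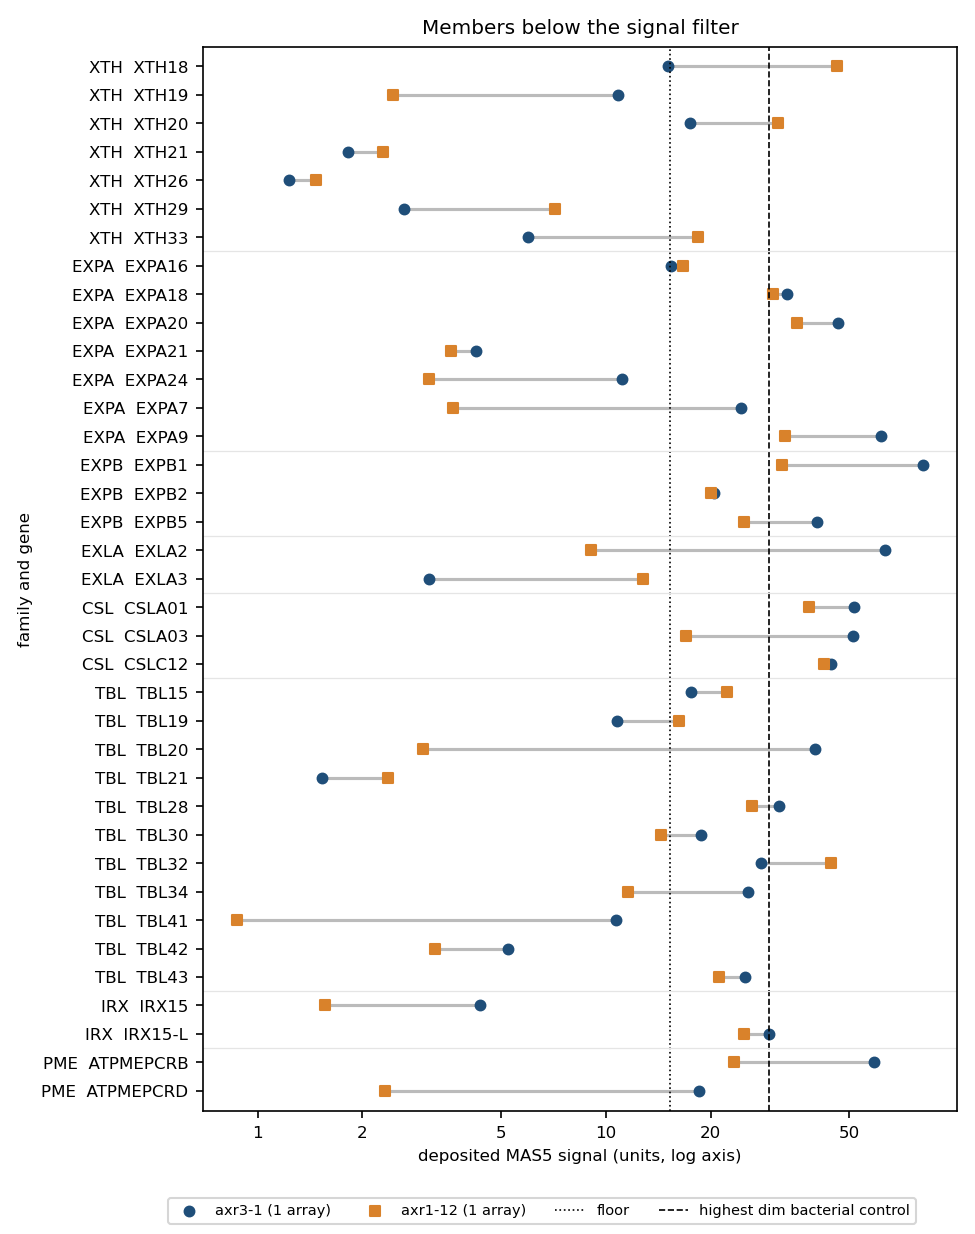
Deposited signal (log axis, units) of the 37 members below the signal filter on the axr3-1 array (circles) and the axr1-12 array (squares), by family. The dotted line is the floor of 15.3 units and the dashed line the highest dim bacterial control, 29.4 units; 21 members lie under the dashed line on both arrays, and 6 lie above it on both.

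The pectin families had 6 members by name, 5 without PMEAMT. PME61 (AT3G59010, also called PME35), a pectin methylesterase of the stem, had 80.3 units in axr3-1 and 41.3 in axr1-12, 1.97-fold lower. PMEPCRF (AT5G53370), another methylesterase, had 66.0 and 76.1 units, a difference of 0.18 inside the yardstick. ATPMEPCRB (AT4G02330, also called PME41) was below the filter, with 58.9 units in axr3-1 and 23.3 in axr1-12, the second value under the dim controls. ATPMEPCRD (AT2G43050) had 18.5 and 2.32 units, both under the dim controls. Of the 2 measured methylesterases, PME61 alone differed beyond the yardstick. GAUT15 (AT3G58790), of the galacturonosyltransferase family that makes pectin backbones, had 77.4 units in axr3-1 and 99.3 in axr1-12, a difference of 0.34. PMEAMT, the lipid enzyme, had 279 and 181 units, 1.56-fold lower. Without it, the median of the measured members was -0.11 over 27 genes. The counts at 2-fold could not change, since PMEAMT differed by less. At 1.5-fold, 6 of the 27 were lower, or 22.2% beside 11.3% of the array. In either direction 37.0% of the 27 differed at least 1.5-fold, beside 19.7% of the array.

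Over all roles, the measured genes with at least 1.5-fold higher signal in axr1-12 were TBL45, EXLA1, CSLD2 and EXPA4, each from a different family. Those lower were XTH16, EXLB1, CSLC04, PME61, EXPB3, TBL26 and PMEAMT, which come from 6 families by name, PME61 and PMEAMT sharing the letters PME. CSL and TBL had measured members beyond the yardstick in both directions, CSL with 2 lower and 1 higher and TBL with 2 of each. Those are 40% and 20% of the 5 measured CSL genes and 18.2% each way of the 11 TBL genes. Over the array 21.2% were lower and 18.3% higher beyond the yardstick, so the TBL shares are close to those of the array. In XTH and EXPA only 1 measured member each lay beyond the yardstick, XTH16 and EXPA4, which can give no shared direction. PME61 and PMEAMT were both lower beyond it, but PMEAMT is not a methylesterase, so PME61 alone stands for that family. No family with at least 4 measured members had a median beyond the yardstick.

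**Figure D4:**
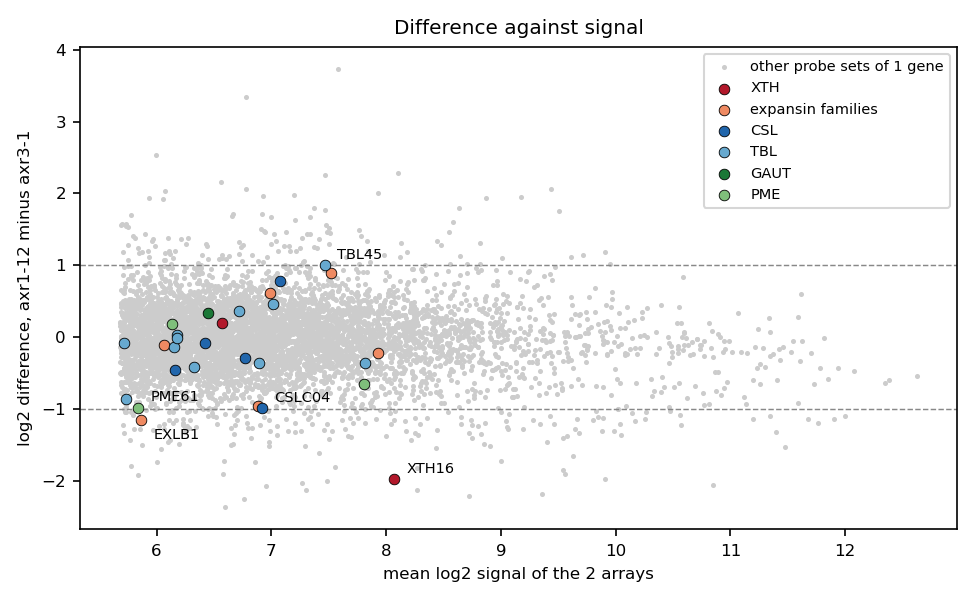
Log2 difference (axr1-12 minus axr3-1) against the mean log2 signal of the 2 arrays for the measured members, coloured by family, over all other measured probe sets of 1 gene in grey; dashed lines mark 2-fold. XTH16 lies at -1.98, clear of the dim edge, while EXLB1 and PME61 lie near the dim edge, where the grey cloud is also wide.

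Further cell wall genes came from lists by role, with 230 entries, of which 20 genes had a probe set of their own and 10 were measured. None of the 10 differed at least 2-fold, beside 5.44% of the array, 8 were lower in axr1-12 and 2 higher, beside 51.7% and 48.3%, and their median was -0.53, beside -0.02. THE1 (AT5G54380), a receptor kinase that senses wall integrity, had 106 units in axr3-1 and 58.7 in axr1-12, 1.83-fold lower, while its relative FER (AT3G51550) had 441 and 545 units, a difference of 0.28. Among endoglucanases GH9B7 (AT1G75680) had 395 and 257 units, 1.56-fold lower, GH9C2 (AT1G64390) had 264 and 177, 1.52-fold lower, and GH9B13 (AT4G02290) had 374 and 525, 1.38-fold higher. COB (AT5G60920), a membrane-anchored protein needed for oriented cellulose deposition, had 308 and 210 units, 1.48-fold lower. HCT (AT5G48930), an enzyme of lignin precursor synthesis, had 449 and 315 units, 1.45-fold lower. GER2 and USP, of nucleotide sugar supply, differed by -0.52 and -0.25, and GH9A3 differed by -0.19. No gene of the xyloglucan and xylan list or the structural protein list was on the array under 1 gene name, and ADPG1 alone of the pectin list was, at the floor on both arrays.

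Values of the arrays and of markers moved beside these differences, and their part in them was not tested. The median signal was 51.8 units for axr3-1 and 52.3 for axr1-12. All 18 hybridisation spikes, which are not bud RNA, had a lower signal in axr1-12 with a median difference of -0.61, and the 142 brightest probe sets, those whose mean log2 signal reached 11, had a median of -0.42. XTH16, at 534 units in axr3-1 and 138 in axr1-12, lay below that cut, and any part of these array values in its difference was not tested. The ratio of 3′ to 5′ signal of the first actin control, a sign of RNA integrity, was 4.30 in axr3-1 and 4.91 in axr1-12. A marker is called present where it had a probe set of its own under 1 gene name, which says nothing of detection. All 3 leaf mesophyll markers present of 16 listed (LHCB4.1, LHCB4.2 and PSAE-1) were lower in axr1-12, as were 51.7% of the array. Their differences were -1.14, -0.93 and -1.14. All 3 are among the 142 brightest probe sets, whose median was -0.42, so a difference of leaf markers and one of bright probe sets cannot be told apart. Of 17 markers of axillary buds and meristems 3 were present. LAS, a regulator required for axillary meristem initiation, had 69.8 and 61.8 units, PHV had 147 and 169, and CLV3 lay at the floor on both arrays. Of 23 xylem and secondary wall markers IRX10 alone was present, of 7 stomatal markers SPCH and MUTE lay at the floor and FAMA (listed as FMA) had 32.5 and 33.8 units, and of 7 anther markers AMS alone was present, with 46.8 and 66.5. No epidermal marker was present under 1 gene name. In whole buds, fewer cells of a type and less RNA per cell cannot be told apart.

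**Figure D5:**
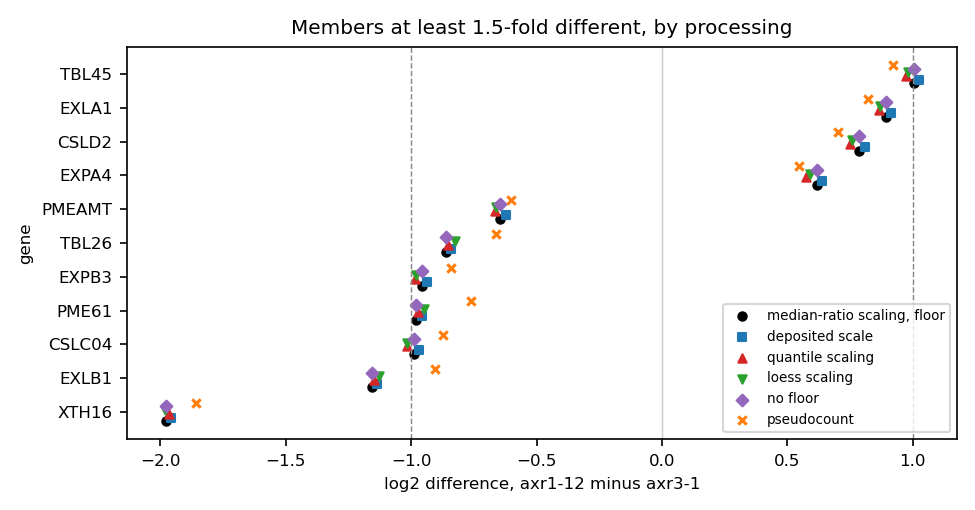
Log2 difference (axr1-12 minus axr3-1) of the 11 members at least 1.5-fold different, under the main processing (black circles) and 5 alternatives (other symbols); dashed lines mark 2-fold. XTH16 stays near -2 throughout, while TBL45, CSLC04 and EXLB1 cross the 2-fold line under at least 1 alternative.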

How the data were processed

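Per the submitters' processing notes, the authors used MAS5, of unstated version, to make the deposited intensities, 1 linear value per probe set. Per the labels' protocols, RNA from RNEasy columns was reverse transcribed from an oligo(dT) primer and labelled with biotin. Both arrays had a trimmed mean of 100.0 units with 2% removed at each end. The 64 manufacturer's controls were left out of the comparison. Gene names came from the platform's annotation, updated to TAIR10.1 symbols. Of 22746 probe sets, 503 carried several genes and 8730 were not listed.

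Signals of axr1-12 were divided by the median ratio over measured probe sets (0.021 on the log2 scale), which moves folds by 1.48% from ratios of the deposited values. The floor was the 25th percentile of both arrays. Python 3.11.15, numpy 2.4.6, pandas 2.3.3 and statsmodels 0.14.6 were used. The procedure was run on simulated data with changes larger than 2-fold in probe sets well above the filter. That run does not bear on calls near 2-fold or on dim members. With 1 array per line no test was possible, and the number of arrays limits the precision. The alternatives were no further scaling, quantile scaling, loess scaling with span 0.3, no floor, a pseudocount of 16, other filters and thresholds, plain _at probe sets and leaving out PMEAMT.

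The members and lists were chosen with earlier results of these data known. Every member could be named; values on both arrays were given for XTH16, members at least 2-fold different and the extremes of each family, and others were named to account for each member. A list entry FDH matched formate dehydrogenase in place of the epidermal gene and was dropped. No protein or promoter sequence is shown.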

Additional observations from a re-analysis of the deposited data

How the results depend on the processing

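No paired analysis was possible because each line has 1 array. The 3 members at least 2-fold different were the same genes on the deposited scale, which moves every difference by a constant 0.021. Removing the floor left their differences as they were, since no measured member lay at it. Plain _at probe sets and leaving out PMEAMT could not change the 3 either. All measured members have plain _at probe sets, and PMEAMT differed 1.56-fold. The count of 1 member at least 2-fold higher became 0 after quantile or loess scaling, with a pseudocount and at 3-fold, 2 without a filter and 4 at 1.5-fold. Over the array, 2.35%, 2.33%, 1.56%, 0.47%, 2.57% and 8.42% were higher under these settings in turn. The count of 2 members lower became 1 with the filter at the 67th percentile and at 3-fold, and 7 without a filter and at 1.5-fold. Over the array, 3.71%, 0.42%, 3.17% and 11.3% were lower under these settings in turn. The count of members lower was 3 after quantile or loess scaling, which added CSLC04, beside 2.98% and 2.90% of the array. It was 2 with a pseudocount, where EXPB1 took the place of EXLB1, beside 2.43% of the array. Without a filter 65 members enter in place of 28, and of those added past 2-fold only EXPB1 lay above the dim controls on both arrays. The median over measured members, -0.12, became -0.25 with the filter at the 67th percentile, which left 14 members. Over the array the median was -0.0096 at that filter. The median of the TBL family, -0.075, became 0.36 over the 5 then left. Of 140 alternative values of single members, 138 kept their sign and moved by less than the yardstick of 0.37. The other 2 were those of TBL36, whose difference of -0.0054 became 0.016 on the deposited scale and 0.0019 after loess scaling. The 28 values without a floor equalled the main ones, and the 28 on the deposited scale differed by a constant 0.021. Neither set could move by 0.37, and all 140 values come from the same 2 arrays. Differences of dim members, such as EXLB1, PME61 and TBL26 with signals near 40 units in axr1-12, are limited by their distance from the dim controls.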
